A study of Mus musculus with 16 samples.

Results

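Cytochrome P450 enzymes are haem-containing oxygenases that insert an oxygen atom into lipids, steroids, vitamins and foreign chemicals. The genes treated here were all symbols of the deposited expression table that read Cyp followed by a family number, a subfamily letter and a member number. There were 92 such genes among 31274. Of these, 27 had a mean above 1 FPKM (read fragments per length of transcript and per size of the library, a scale on which genes of different length can be set side by side) in at least 1 of the 4 groups. The other 65 lay at or under that minimum, and 9 of the 65 were listed at 0 in every sample. Genes with the same protein fold but another kind of symbol (Cyp51, Ptgis and Tbxas1) were outside the rule and are given only as a comparison.

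P450 genes fall into families with separate tasks. CYP1 enzymes oxidise aromatic chemicals and oestrogens and are induced through the aryl hydrocarbon receptor (AhR). CYP2 and CYP3 enzymes handle foreign chemicals and some fatty acids, CYP4 enzymes hydroxylate fatty acids and eicosanoids, and the remaining families mostly act on cholesterol, bile acids, steroid hormones, retinoic acid and vitamin D. Most microsomal P450s are abundant in the liver, whereas the seminal vesicle (SV), a secretory gland of the male tract, is known for secretion under androgen control rather than for drug metabolism.

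RNA was sequenced from SVs of male C57Bl/6 mice at 5 weeks of age. The 4 groups of 4 samples were wild type (WT) with vehicle (WT-veh), WT with diethylstilbestrol (WT-DES), αERKO with vehicle (αERKO-veh) and αERKO with DES (αERKO-DES). αERKO mice lack functional oestrogen receptor α, encoded by Esr1, in the whole body, so that loss in the SV cannot be told apart from loss elsewhere. DES is a synthetic oestrogen, injected under the skin in corn oil at 2 µg per pup per day from day 1 to day 5 of life, and vehicle pups received corn oil alone. The SV was cut away from the anterior prostate. WT pups came from purchased pregnant C57Bl/6 females and αERKO pups from heterozygous breeding, so genotype and source of the litters cannot be told apart. The methods for RNA extraction describe individual mice for 3 groups and 3 pools of mice for WT-DES, and for sequencing they state 4 samples per group. The spread within WT-DES may thus be between pools. Whether its 4 samples come from separate pools is not stated.

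Changes were tested with limma on log2(FPKM + 1), in 1 model of the 16 samples, over the 15988 genes with a mean above 1 FPKM in at least 1 group, with Benjamini-Hochberg adjustment over all of them. A gene was called changed when its adjusted p did not exceed 0.05, its group means differed at least 1.5-fold and 1 of those means was above 1 FPKM. All log2 changes below are on this scale, where low genes appear to change less than they do, and SE is the standard error from the model. Whether the change with DES differed between the genotypes was tested as an interaction, the WT log2 change less the αERKO one, called when the adjusted p did not exceed 0.05 and the difference came to 1.5-fold or more. FPKM values hold no counts, so the depth behind a value is unknown, and its precision rests on the spread between the 4 samples.

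Esr1 reached at most 1.75 FPKM in the 8 αERKO samples and at least 2.81 in the 8 WT samples, which fits the genotype in the labels. Some libraries stood apart. WT-DES sample 1 had 3580 FPKM over 6 smooth muscle markers, near the 2993 to 3734 of WT-veh and the 2284 to 3545 of the αERKO samples, while the other 3 WT-DES samples had 791 to 1256. Of these markers 5 of 6 were called lower in WT-DES, but 0 under quantile normalization. Skeletal muscle transcripts differed as well. Mylpf, a myosin light chain of fast skeletal muscle, was at 307 FPKM in WT-veh sample 4 and at 250, 384 and 219 in αERKO-veh samples 2, 3 and 4, against at most 27.1 in the other 12 samples. The 8 skeletal muscle markers together, of which Acta1 made up most outside these 4, came to 568 to 1592 FPKM with vehicle and 36.0 to 331 with DES in WT, and to 581 to 1869 and 481 to 681 in αERKO. The 6 adipocyte markers summed to 208 to 1042 FPKM in WT-veh samples and 825 to 1898 in WT-DES samples. In αERKO their sum was 88.2 to 1044 with vehicle and 17.0 to 61.0 with DES. WT-DES also had higher fibroblast markers (6 of 6 called, summed level 1916 to 2091 against 731 to 881 in WT-veh) and endothelium markers (5 of 5 called). Of 8 leukocyte markers, 7 were called higher and Cd52 lower. The epithelium markers summed to 765 to 1062 FPKM in WT-DES and 1459 to 1610 in WT-veh, with 5 of 6 called lower, but under quantile normalization 0 of the 6 were lower and Epcam changed sign. The 8 SV secretion markers were all called lower. Their sum was 49597 to 57994 FPKM in WT-veh and 2436 to 7951 in WT-DES, and at least 30143 in the αERKO samples. Tgm4, Pbsn and Sbp, secretory genes of the neighbouring prostate, summed to 3743 to 7830 FPKM in WT-veh, 19.7 to 335 in WT-DES and 3186 to 4564 in the αERKO samples. Sbp alone was at 58.8, 2.59, 2057 and 4368 FPKM in WT-veh and at 43.2 to 490.0 in αERKO-veh, and its part in the P450 values was not tested. In tissue RNA, fewer cells of a type and less RNA per cell cannot be told apart.

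The letters GCGTG are the core of the site that AhR and its partner ARNT bind. The sequences before the start sites are shown for both expressed CYP1 genes and for Cyp4f39, the gene with 2 copies among those that rose in WT-DES. In the 250 bases before each start in the RefSeq promoter table (GRCm38.p6), the capitals mark GCGTG on either strand, so that a copy on the other strand reads CACGC. The windows are chr9:57697363-57697612 (plus strand) for Cyp1a1, chr17:79715062-79715311 (minus strand) for Cyp1b1 and chr17:32452473-32452722 (plus strand) for Cyp4f39, each written 5′ to 3′ on the gene's strand.
Cyp1a1: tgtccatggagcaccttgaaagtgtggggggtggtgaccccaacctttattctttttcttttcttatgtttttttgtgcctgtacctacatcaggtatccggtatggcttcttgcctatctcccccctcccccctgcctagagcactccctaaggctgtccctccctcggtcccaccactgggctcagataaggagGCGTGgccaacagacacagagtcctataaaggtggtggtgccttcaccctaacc
Cyp1b1: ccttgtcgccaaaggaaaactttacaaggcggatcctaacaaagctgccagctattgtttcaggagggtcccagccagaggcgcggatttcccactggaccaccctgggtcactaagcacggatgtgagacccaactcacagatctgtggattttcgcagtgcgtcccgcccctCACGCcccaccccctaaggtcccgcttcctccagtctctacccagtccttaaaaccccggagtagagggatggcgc
Cyp4f39: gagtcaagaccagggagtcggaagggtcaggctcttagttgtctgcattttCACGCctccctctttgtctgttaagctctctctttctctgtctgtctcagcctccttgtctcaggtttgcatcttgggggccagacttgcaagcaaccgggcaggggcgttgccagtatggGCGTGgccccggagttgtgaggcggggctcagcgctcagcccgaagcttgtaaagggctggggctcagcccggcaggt

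The copies begin 54 bases before the start in Cyp1a1, 76 in Cyp1b1, and 199 and 78 in Cyp4f39. The table held promoters for 22 of the 27 expressed genes. GCGTG on either strand was in 10 of the 22 and in 28.2% of all 27025 promoters. It was in 5 of the 12 genes called higher in WT-DES and in 5 of the other 10. Among those 10, Cyp46a1 with 4 copies and Cyp2b10 with 2 were not called, and Cyp20a1 with 2 fell. The palindromic oestrogen response element was in 0 of the 22 and in 0.0629% of all promoters, the nuclear receptor site AGGTCA in 2 of the 22 (Cyp2f2 and Cyp3a57) and in 13.8%, and TATAAA in 3 of the 22 (Cyp1a1, Cyp26b1 and Cyp2e1) and in 13.0%. A palindromic element preceded by an A would also match AGGTCA. Such matches describe the letters in these windows and do not show binding.

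The summed FPKM of the 92 genes was 159 to 220 in WT-veh samples and 331 to 421 in WT-DES samples. In αERKO it was 204 to 345 with vehicle and 150 to 166 with DES. Cyp20a1, a P450 without a known substrate, was the first gene in 3 of 4 WT-veh samples and in all 4 αERKO-DES samples. Cyp2e1, which oxidises ethanol and acetone, was first in all 4 WT-DES samples and held 19.8% to 43.8% of their sums. Without Cyp2e1 and Cyp2f2 the sums were 147 to 159 in WT-veh samples and 209 to 306 in WT-DES samples, with 148 to 168 and 146 to 159 in the vehicle and DES samples of αERKO.

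**Figure D1:**
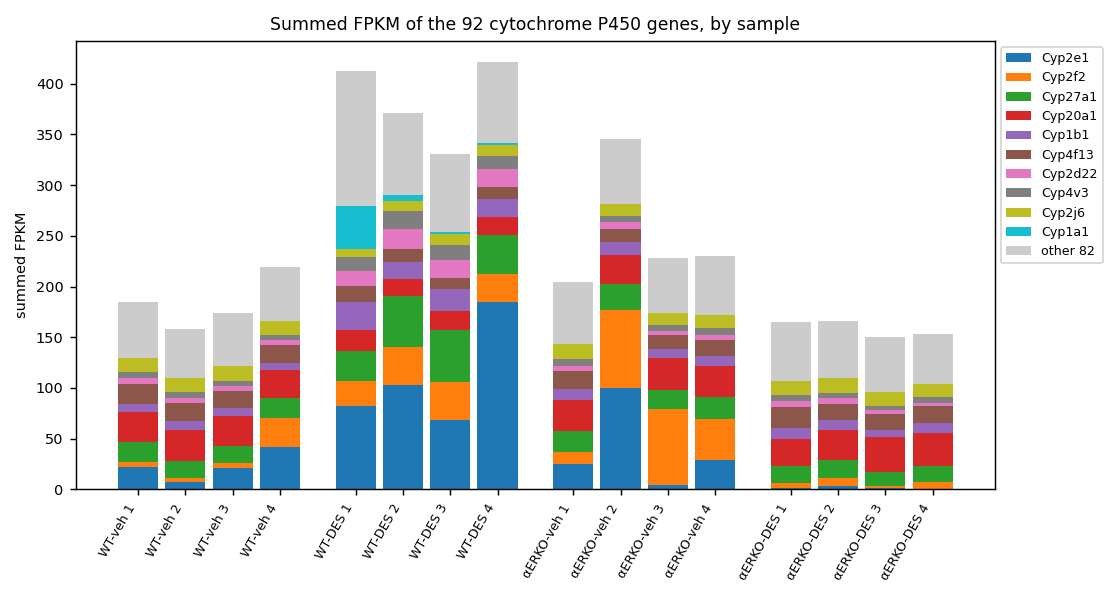
Summed FPKM (y axis) of the 92 cytochrome P450 genes in each of the 16 samples (x axis), with the 10 genes of highest group mean in colour and the other 82 in grey. The WT-DES bars reach 331 to 421 FPKM, and Cyp2e1 goes from 68.5 to 184 FPKM within them and from 3.93 to 99.8 within αERKO-veh.

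Expression was uneven across the family tree. Of the CYP4 genes, 8 of 16 passed the minimum, among them 6 of 9 in subfamily Cyp4f. Of the CYP2 genes, 9 of 48 passed. None of the 15 Cyp2c genes, the 4 Cyp2a genes or the 4 Cyp4a genes did, and 1 each passed of the 9 Cyp2d (Cyp2d22), 7 Cyp3a (Cyp3a57) and 5 Cyp2b genes (Cyp2b10). There were 20 genes above 1 FPKM in all 4 groups. Cyp1a1, Cyp4f18 and Cyp4f39 passed through WT-DES alone, so that a difference of WT-DES from the other groups is built into their selection. The lowest gene inside the minimum was Cyp2j13, whose highest group mean was 1.27, and the nearest outside were Cyp2u1 at 0.798 and Cyp4f37 at 0.703. Of the 65 genes under the minimum, 49 had no group mean as high as 0.1 FPKM. Of the 65, a single gene, Cyp2c44, exceeded 1 FPKM in a single sample, at 1.24 in WT-DES sample 1.

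Of the 27 expressed genes, 18 were called between WT-DES and WT-veh, while 52.7% of all tested genes were called. Most tested genes were thus called in this comparison, and a call alone does not set a P450 gene apart. By direction, 14 P450 genes rose and 4 fell, where 28.9% of all tested genes rose and 23.9% fell. The median log2 change was 0.76 over the 27 genes and −0.01 over all 15988. At an unadjusted p under 0.05 there were 21 P450 genes (77.8%), close to the 75.5% of all tested genes. Leaving aside the 3 genes that passed the minimum through WT-DES alone, 11 of 24 rose and 4 fell. All other P450 figures of this paragraph include those 3 genes. Samples of the 2 groups did not overlap for 14 P450 genes that were higher and 5 that were lower in WT-DES, where 32.7% of all tested genes were higher and 34.0% lower without overlap. Of the called P450 genes 77.8% were higher, against 54.7% of all called genes. This contrast depended on the scaling. Under quantile normalization 13 P450 genes rose and 7 fell (65.0% higher, against 48.3% of all), with a median of 0.35. Rescaling without the 20 most abundant genes shifted the median of all genes by 0.39 and gave 16 higher and 3 lower, 84.2% against 79.2% of all called genes.

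**Figure D2:**
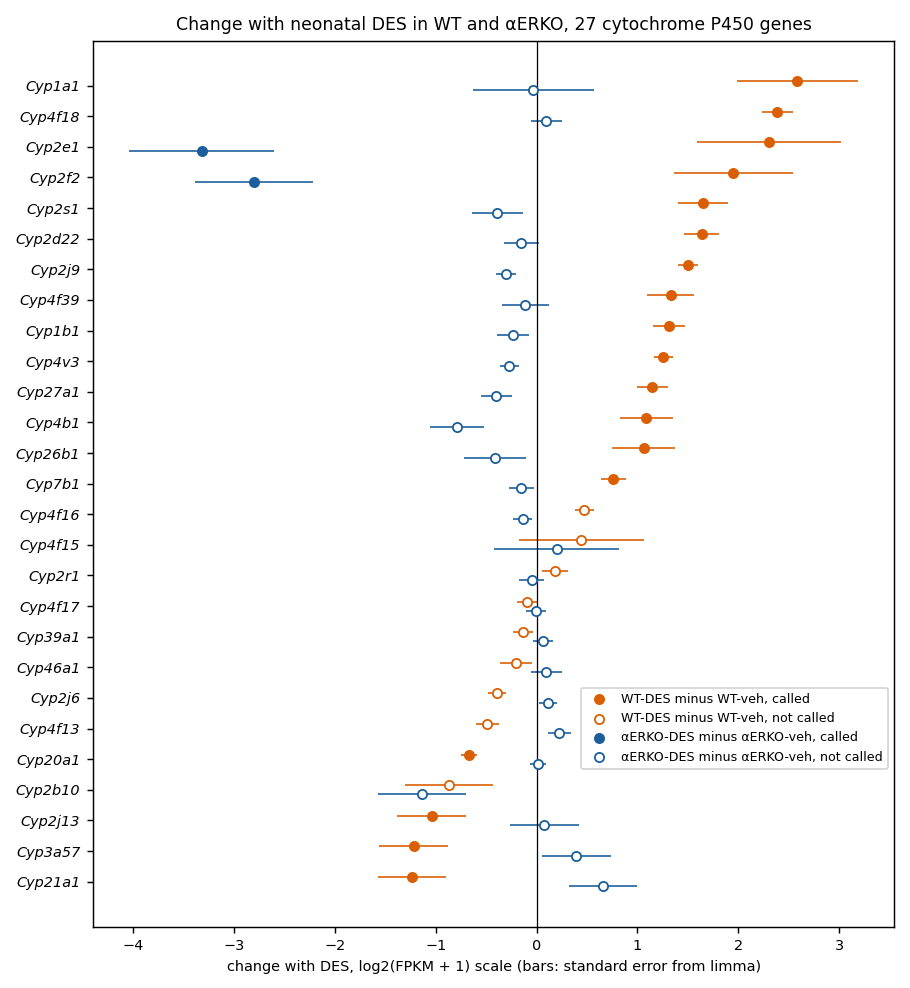
Log2 change with DES on the log2(FPKM + 1) scale (x axis) of the 27 expressed cytochrome P450 genes (y axis) in WT (orange) and αERKO (blue), with bars for the standard error from limma and filled points for called changes. In WT 18 genes are called, in αERKO only Cyp2e1 and Cyp2f2, both in the opposite direction to WT.

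Of the 3 dioxin-inducible CYP1 genes, 2 were expressed and both were called higher in WT-DES, as were 28.9% of all tested genes, and for Cyp1a1 the rise was built into its selection. Cyp1a1 (chromosome 9, 57687928 to 57703824, plus strand, GENCODE M21 on GRCm38), which oxidises polycyclic aromatic hydrocarbons and is the textbook AhR target, was at 0.14, 0.10, 0.13 and 0.15 FPKM in the WT-veh samples and at 41.7, 5.51, 1.43 and 2.12 in WT-DES. It was between 0.02 and 0.17 FPKM in all 8 αERKO samples. Every WT-DES sample was thus above every other sample, but by very different amounts, and sample 1 carried most of the group mean of 12.7 ± 19.4 (SD, n = 4). As Cyp1a1 passed the minimum through WT-DES alone, its log2 change of 2.58 (SE 0.60), a ratio of means of 97.7, is given as a description. Without WT-DES sample 1 it was 1.70 and the ratio 23.2, and with a pseudocount of 0.1 in place of 1 it was 4.54.

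Cyp1b1 (chromosome 17, 79701537 to 79715061, minus strand), which hydroxylates oestradiol and aromatic hydrocarbons, was at 8.27, 9.02, 7.80 and 6.63 FPKM in WT-veh and at 28.6, 17.6, 22.0 and 17.6 in WT-DES. It was at 11.1, 12.7, 8.85 and 10.8 in αERKO-veh and at 10.3, 10.1, 6.67 and 9.46 in αERKO-DES. The lowest WT-DES sample lay above all samples of the other groups. The log2 change in WT was 1.31 (SE 0.16, limma adjusted p = 3.44e-06). Cyp1a2, the liver member of the family, was at 0.03 FPKM or less everywhere.

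Cyp2s1 (chromosome 7, 25802475 to 25816913, minus strand) is an extrahepatic P450 that dioxin induces. It was at 2.88, 2.31, 2.29 and 2.39 FPKM in WT-veh and at 21.6, 8.97, 6.75 and 6.97 in WT-DES, with 3.14 to 4.11 in the αERKO-veh samples and 2.13 to 3.07 in the αERKO-DES ones. The WT-DES samples again stood above all others, and sample 1 was the highest. The log2 change in WT was 1.65 (SE 0.25, limma adjusted p = 3.02e-05) and 1.30 without that sample. Of the stretches of its transcripts as long as a read, 4.45% also occur in the overlapping lincRNA Gm26707, so its value could include reads of that gene.

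The gene for the receptor also rose. Ahr was at 5.24 to 6.68 FPKM in WT-veh and at 15.3 to 24.6 in WT-DES, a log2 change of 1.60 (SE 0.13, limma adjusted p = 5.52e-08). Arnt rose by 0.69 and the AhR repressor gene Ahrr, an AhR target, was at 0.16 to 0.31 FPKM with vehicle and 2.07 to 3.59 with DES. Ahrr exceeded 1 FPKM in WT-DES alone and entered the test through that group, so its change of 1.49 is given as a description. In the αERKO groups Ahr lay between 4.74 and 7.70 FPKM and Ahrr at 0.23 or less.

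**Figure D3:**
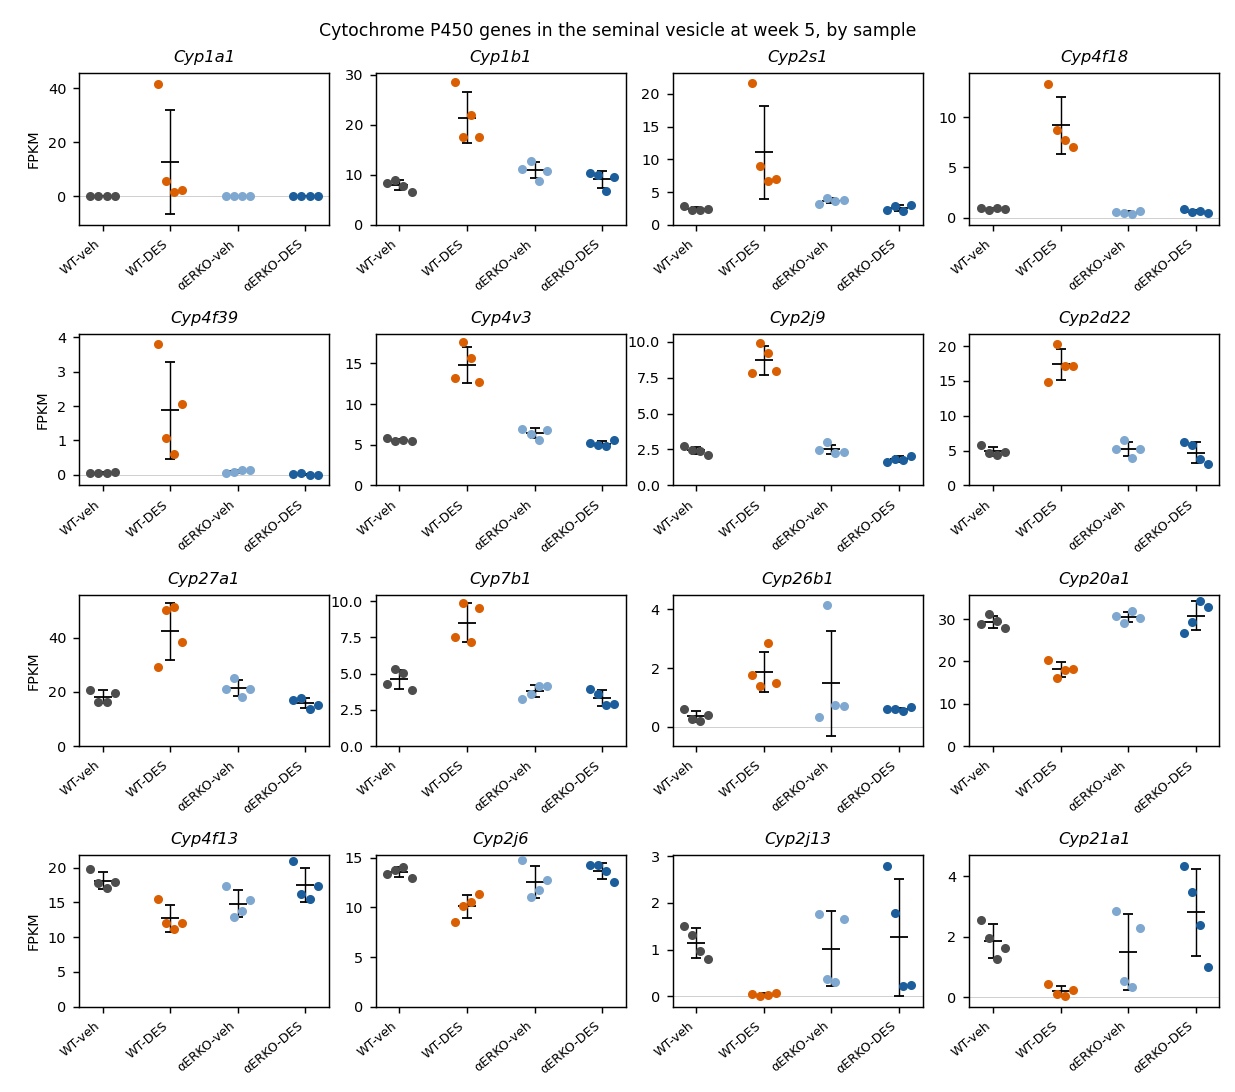
FPKM (y axis, a separate scale in each panel) of 16 cytochrome P450 genes in the 4 groups (x axis), where points are samples in the order 1 to 4 and black bars are the mean ± SD of 4 samples. The WT-DES points lie above all others for Cyp1a1, Cyp1b1, Cyp2s1, Cyp4f18, Cyp4f39, Cyp4v3, Cyp2j9, Cyp2d22, Cyp27a1 and Cyp7b1, and WT-DES sample 1 lies far from its group for Cyp1a1 and Cyp2s1.

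Of the expressed CYP4 fatty acid hydroxylases, Cyp4f18, Cyp4f39, Cyp4v3 and Cyp4b1 were called higher in WT-DES and the others were not called. Cyp4f18 (chromosome 8, 71988482 to 72009626, minus strand), which inactivates leukotriene B4 in neutrophils, was at 0.97, 0.77, 1.00 and 0.86 FPKM in WT-veh and at 13.3, 8.70, 7.73 and 7.02 in WT-DES. It did not exceed 0.85 in any αERKO sample. The log2 change in WT, a description for the same reason, was 2.39 (SE 0.15), a ratio of means of 10.2. In the same samples 7 of 8 leukocyte markers were higher, among them Ptprc, which went from 1.77 to 3.80 FPKM to 21.5 to 43.5, and their part in the Cyp4f18 result was not tested. An exon of Zfp961 on the other strand overlaps 9.76% of the exon bases of Cyp4f18.

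Cyp4f39 (chromosome 17, 32452723 to 32493320, plus strand), which hydroxylates very long fatty acids for the lipids of the skin barrier, was at 0.06, 0.04, 0.04 and 0.07 FPKM in WT-veh and at 3.80, 1.08, 0.60 and 2.05 in WT-DES, and at 0.13 or less in the αERKO samples. The WT-DES samples were spread over a wide range and all lay above the rest. Again as a description of a gene that passed through WT-DES alone, the log2 change was 1.33 (SE 0.24), with a ratio of means of 35.9, or 23.7 without WT-DES sample 1. With a pseudocount of 0.1 the log2 change of Cyp4f39 was 3.42, and among the other low genes it was −3.20 for Cyp2j13, −2.80 for Cyp21a1, −2.14 for Cyp3a57 and 2.12 for Cyp26b1, each larger than on the main scale.

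Cyp4f39 lies in a cluster on chromosome 17 with Cyp4f17, Cyp4f16, Cyp4f15 and, on the other strand, Cyp4f13, between 32452723 and 32947402, and of these neighbours none was called in WT-DES. Cyp4f13 was at 19.8, 17.8, 17.0 and 17.9 FPKM in WT-veh and at 15.6, 12.0, 11.2 and 12.0 in WT-DES. All WT-DES samples were below all WT-veh samples (log2 change −0.49, SE 0.11, limma adjusted p = 0.00117), but the ratio of means of 0.701 was short of 1.5-fold. It was called without WT-DES sample 1 (−0.58, limma adjusted p = 0.000168), and rescaling without the most abundant genes left −0.08 (limma adjusted p = 0.431). Cyp4f16 went from a mean of 5.83 ± 0.438 FPKM to 8.47 ± 0.429 with DES (SD, n = 4 each), without overlap and also short of 1.5-fold (log2 change 0.47, SE 0.09, limma adjusted p = 0.000333). This too depended on the scaling, since it was called higher on rescaling without the 20 most abundant genes and after length correction. Cyp4f17 had 5.10 ± 0.662 and 4.70 ± 0.636 (log2 change −0.10, SE 0.10, limma adjusted p = 0.383).

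Cyp4f15 rested on 1 sample. It was at 3.86, 3.34, 4.10 and 3.68 FPKM in WT-veh and at 40.1, 0.82, 4.86 and 2.91 in WT-DES. The log2 change of 0.44 (SE 0.62, limma adjusted p = 0.53) was not called, and without WT-DES sample 1 it was −0.45 (limma adjusted p = 0.151). In both αERKO groups the gene was at 4.69 to 7.61 FPKM.

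Cyp4v3 (chromosome 8, 45304944 to 45333216, minus strand), the mouse counterpart of human CYP4V2, a fatty acid hydroxylase of the retina, was at 5.83, 5.43, 5.60 and 5.47 FPKM in WT-veh and at 13.3, 17.6, 15.7 and 12.8 in WT-DES. The αERKO samples lay between 4.85 and 6.99, so that WT-DES stood alone. The log2 change was 1.25 (SE 0.09, limma adjusted p = 2.44e-08). The overlapping gene model Gm45753 on the same strand shares 5.10% of its read-length stretches. Cyp4b1, which acts on short fatty acids and toxins such as ipomeanol, was at 3.35, 2.02, 2.94 and 2.93 FPKM in WT-veh and at 3.46, 10.1, 6.87 and 9.65 in WT-DES (log2 change 1.09, SE 0.26, limma adjusted p = 0.00174), where sample 1 was the only one near the vehicle level.

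The genes of subfamily Cyp2j, whose enzymes oxidise arachidonic acid, moved apart. They lie together on chromosome 4, from 96027534 to 96591578, all on the minus strand. Cyp2j9 was at 2.76, 2.49, 2.37 and 2.11 FPKM in WT-veh and at 7.80, 9.89, 9.19 and 7.97 in WT-DES, and did not exceed 2.99 in αERKO. Its log2 change in WT was 1.5 (SE 0.10, limma adjusted p = 7.3e-09).

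Cyp2j13 went the other way, from 1.51, 1.31, 0.97 and 0.80 FPKM in WT-veh to 0.04, 0, 0.03 and 0.07 in WT-DES (log2 change −1.04, SE 0.34, limma adjusted p = 0.0124). In the αERKO groups it varied from 0.22 to 2.80 FPKM between samples. Cyp2j6, the most expressed of the 3, was at 13.4, 13.7, 14.1 and 13.0 FPKM in WT-veh and at 8.53, 10.1, 10.5 and 11.3 in WT-DES, without overlap but with a ratio of 0.746 that was not called (log2 change −0.39, SE 0.09, limma adjusted p = 0.00106). The rest of the subfamily, Cyp2j5, Cyp2j8, Cyp2j11 and Cyp2j12, stayed under the minimum.

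Cholesterol and its oxidised forms are the substrates of the next group. Of 6 genes for cholesterol and bile acid turnover, 4 were expressed, and 2 of them rose in WT-DES, where 28.9% of all tested genes rose. Cyp27a1 (chromosome 1, 74713574 to 74737892, plus strand), the mitochondrial sterol 27-hydroxylase, was at 20.6, 16.2, 16.2 and 19.7 FPKM in WT-veh and at 29.3, 50.1, 51.4 and 38.5 in WT-DES. This was a log2 change of 1.15 (SE 0.16, limma adjusted p = 1.02e-05). In αERKO-veh it was at 20.9, 25.2, 18.2 and 21.2 FPKM and in αERKO-DES at 17.1, 17.7, 13.7 and 15.2. These last 2 groups did not overlap either, with DES lower, yet the change of −0.40 (SE 0.16, limma adjusted p = 0.137) was not called.

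Cyp7b1 (chromosome 3, 18071950 to 18243338, minus strand), the oxysterol 7α-hydroxylase that also clears an androgen-derived ligand of oestrogen receptor β in the prostate, was at 3.85 to 5.29 FPKM in WT-veh and at 7.18 to 9.86 in WT-DES (log2 change 0.76, SE 0.12, limma adjusted p = 5.66e-05). The αERKO samples held 2.82 to 4.16 FPKM. Cyp39a1, which hydroxylates 24-hydroxycholesterol, was not called, with a mean of 8.12 ± 0.920 FPKM with vehicle and 7.27 ± 0.498 with DES in WT, and 8.02 ± 1.30 and 8.34 ± 0.410 in αERKO (SD, n = 4 each). Cyp46a1, the cholesterol 24-hydroxylase of neurons, lay between 1.63 and 3.89 FPKM and was not called either. The change in WT was −0.14 for Cyp39a1 and −0.21 for Cyp46a1, and both changed sign when samples were rescaled without the 20 most abundant genes. Under quantile normalization Cyp46a1 was called lower (−0.68, limma adjusted p = 0.000533). Cyp7a1, the rate-limiting enzyme of bile acid synthesis in liver, was listed at 0 in all samples and Cyp8b1 did not exceed 0.42 FPKM.

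Enzymes for retinoic acid, vitamin D and steroid hormones were low. Cyp26b1 (chromosome 6, 84571414 to 84593908, minus strand), which degrades retinoic acid, was at 0.60, 0.25, 0.19 and 0.41 FPKM in WT-veh and at 1.76, 1.38, 2.87 and 1.5 in WT-DES. It amounted to a log2 change of 1.06 (SE 0.31, limma adjusted p = 0.00614), and under quantile normalization it was 0.64 and not called (limma adjusted p = 0.065). The αERKO-veh samples held 0.35, 4.15, 0.73 and 0.71 FPKM, where sample 2 exceeded every WT-DES sample, and αERKO-DES held 0.55 to 0.66. Cyp26a1 and Cyp26c1 were under the minimum. Of the vitamin D enzymes, the 25-hydroxylase gene Cyp2r1 was at 1.02 to 2.36 FPKM and was not called in any comparison, with a change in WT of 0.18. That change depended on the scaling, since it was −0.28 under quantile normalization and was called higher on rescaling without the 20 most abundant genes (0.45) and after length correction (0.41). Cyp27b1 and Cyp24a1 were under the minimum.

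Of 6 genes for steroid hormone synthesis only Cyp21a1 (chromosome 17, 34801348 to 34804561, minus strand), the 21-hydroxylase of the adrenal cortex, was expressed. It was at 2.57, 1.96, 1.27 and 1.63 FPKM in WT-veh and at 0.43, 0.10, 0.06 and 0.23 in WT-DES (log2 change −1.24, SE 0.34, limma adjusted p = 0.00405). In αERKO-veh it was at 2.84, 0.54, 0.35 and 2.30 and in αERKO-DES at 4.35, 3.47, 2.39 and 1.01 FPKM, so that the αERKO-veh samples fell into a high and a low pair. Cyp11a1 did not exceed 0.45 FPKM, Cyp17a1 0.61 and the aromatase gene Cyp19a1 0.65, the last in a single αERKO-DES sample. The 5 markers of steroid-producing cells summed to 2.20 to 4.70 FPKM in all samples.

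Of the remaining genes, Cyp2d22 (chromosome 15, 82370527 to 82380260, minus strand), a mouse counterpart of the human drug-metabolising CYP2D6, rose without overlap. It was at 5.78, 4.58, 4.40 and 4.81 FPKM in WT-veh and at 14.8, 20.4, 17.1 and 17.2 in WT-DES, with 3.07 to 6.53 in αERKO. This gave a log2 change of 1.64 (SE 0.17, limma adjusted p = 7.61e-07).

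Cyp20a1 (chromosome 1, 60343323 to 60388060, plus strand) fell from 28.9, 31.2, 29.7 and 27.8 FPKM in WT-veh to 20.3, 16.2, 17.9 and 18.1 in WT-DES (log2 change −0.67, SE 0.08, limma adjusted p = 2.76e-06). The αERKO samples stayed between 26.6 and 34.4. The call was lost when samples were rescaled without the 20 most abundant genes (−0.25, limma adjusted p = 0.0167) and after a correction for transcript length (−0.49, limma adjusted p = 0.000242), where the ratio of means was under 1.5-fold.

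Cyp3a57 (chromosome 5, 145345279 to 145390926, plus strand), the one expressed gene of the drug-metabolising Cyp3a group, was at 3.52, 3.66, 3.79 and 3.30 FPKM in WT-veh and at 4.08, 0.13, 0.62 and 0.58 in WT-DES. Here sample 1 alone kept the vehicle level. The log2 change was −1.22 (SE 0.34, limma adjusted p = 0.00441) and −1.68 without that sample (limma adjusted p = 1.81e-06), with a ratio of means of 0.379 and 0.124. Cyp2b10, the phenobarbital-induced gene, was at 0.31, 0.19, 1.52 and 6.40 FPKM in WT-veh, at 0 to 0.55 in WT-DES, at 1.59 to 4.37 in αERKO-veh and at 0.57 to 0.98 in αERKO-DES, and was not called. Without WT-veh sample 4 it was called higher in αERKO-veh than in WT-veh (log2 change 1.32, limma adjusted p = 0.0186) and lower in αERKO-DES than in αERKO-veh (−1.14, limma adjusted p = 0.0359). Without WT-veh sample 1 or 2 it was called lower in WT-DES than in WT-veh.

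Cyp2e1 and Cyp2f2 had the highest group means of the family and were the P450 genes called within αERKO. Cyp2e1 (chromosome 7, 140763739 to 140774987, plus strand) was at 21.9, 7.52, 21.2 and 42.0 FPKM in WT-veh and at 81.8, 103, 68.5 and 184 in WT-DES. In αERKO-veh it was at 24.8, 99.8, 3.93 and 28.9 and in αERKO-DES at 1.74, 3.62, 1.18 and 0.38 FPKM. WT-DES lay above WT-veh without overlap (log2 change 2.31, SE 0.72, limma adjusted p = 0.00916), and αERKO-DES below αERKO-veh without overlap (−3.32, SE 0.72, limma adjusted p = 0.0351).

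The adipocyte markers moved beside it. Over WT-veh samples 1 to 4 their sum was 630, 208, 721 and 1042 FPKM, and over the WT-DES samples 1114, 1325, 825 and 1898. For αERKO it was 403, 1044, 88.2 and 433 with vehicle and 52.1, 61.0, 34.8 and 17.0 with DES. In each of the 4 groups the sample with the least marker signal was also the one with the least Cyp2e1, and the sample with the most was the one with the most. Cyp2e1 is known to be expressed in fat as well as in liver, and the 6 hepatocyte markers summed to 7.53 FPKM in αERKO-veh sample 4 and to at most 3.36 elsewhere. Of the 6 adipocyte markers, DES was accompanied by 4 called higher in WT and 4 called lower in αERKO. Their part in the Cyp2e1 result was not tested.

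Cyp2f2 (chromosome 7, 27119909 to 27133660, plus strand), which activates naphthalene in the airway, was at 4.71, 3.91, 5.11 and 28.3 FPKM in WT-veh and at 25.2, 37.6, 37.6 and 27.8 in WT-DES. In αERKO-veh it was at 11.9, 77.4, 75.8 and 41.0 and in αERKO-DES at 4.53, 7.58, 2.57 and 7.11 FPKM. The vehicle samples with much Cyp2f2, WT-veh sample 4 and αERKO-veh samples 2, 3 and 4, are the 4 samples with Mylpf above 100 FPKM, whereas in WT-DES Cyp2f2 was high with Mylpf at 2.55 to 10.3. Of the 8 skeletal muscle markers, 3 were called higher in αERKO-veh than in WT-veh, and 4 fell with DES in αERKO. Their part in the Cyp2f2 result was not tested. An antisense transcript, Gm15883, overlaps 13.5% of its exon bases, and whether counting used strand is not given in the sources used here.

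Cyp2f2 was the 1 gene of the 27 called in αERKO-veh relative to WT-veh, where 7.12% of all tested genes were called, 4.5% higher and 2.63% lower (log2 change 2.33, SE 0.59, limma adjusted p = 0.0136, with overlapping samples). The 1139 calls over all genes became 418 without αERKO-veh sample 2, 715 without WT-veh sample 3 and 7 without the 4 samples with Mylpf above 100 FPKM. At an unadjusted p under 0.05 there were 6 P450 genes (22.2%, against 38.9% of all), and the median log2 change was 0.06 over the 27 genes and −0.02 over all. Cyp2f2 also rose in WT-DES (1.95, SE 0.59, limma adjusted p = 0.00753) and fell in αERKO-DES relative to αERKO-veh (−2.80, SE 0.59, limma adjusted p = 0.0351). Leaving out the 4 samples with Mylpf above 100 FPKM, a choice made after these values were seen, gave 2.55 in WT-DES (limma adjusted p = 1.57e-05). It gave 1.21 in αERKO-veh (limma adjusted p = 0.584) and −1.08 for DES in αERKO (limma adjusted p = 0.928), with a lone αERKO-veh sample assumed to vary like the other groups. The call in αERKO-veh was also lost without αERKO-veh sample 2 (2.04, limma adjusted p = 0.0525).

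**Figure D4:**
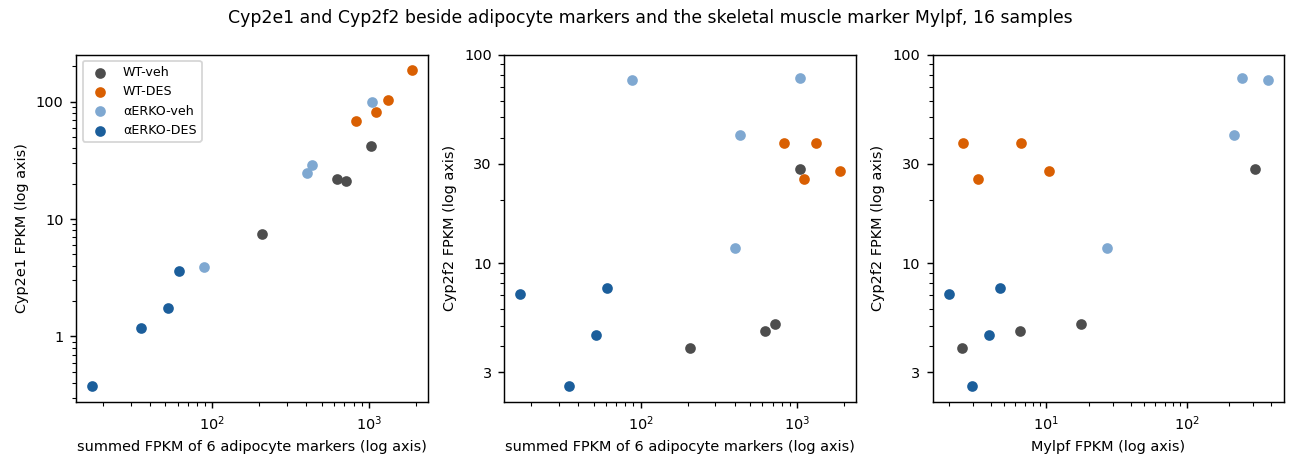
FPKM of Cyp2e1 (left panel) and Cyp2f2 (middle and right panels) on log axes in the 16 samples, against the summed FPKM of 6 adipocyte markers or the FPKM of the skeletal muscle marker Mylpf. Cyp2e1 goes from 0.38 FPKM at a marker sum of 17.0 to 184 at 1898, and outside WT-DES the 4 samples with the most Cyp2f2 are those with Mylpf above 100 FPKM.

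Within αERKO few genes of the family were called with DES. In αERKO-DES relative to αERKO-veh, Cyp2e1 and Cyp2f2 were the 2 of 27 genes called, both lower, where 1.49% of all tested genes were called, 0.0876% higher and 1.41% lower. At an unadjusted p under 0.05 there were 7 genes (25.9%), near the 25.3% of all tested genes. The median log2 change was −0.11 over the 27 genes and 0.02 over all tested genes. Both calls lay close to the threshold, and the number of calls over all genes varied widely. The 239 calls over all genes became 1 to 3 without αERKO-veh sample 2 or 4, αERKO-DES sample 1, 2 or 3, or WT-veh sample 3, 76 without WT-veh sample 1, 558 without WT-DES sample 1 and 653 without αERKO-veh sample 1. In the 6 fits with 1 to 3 calls Cyp2e1 and Cyp2f2 were not called either. Without αERKO-veh sample 2, Cyp2e1 changed by −2.65 (limma adjusted p = 0.134) and Cyp2f2 by −2.51 (limma adjusted p = 0.137). In the other 5 the log2 change was −3.24 to −3.62 for Cyp2e1 and −2.55 to −2.97 for Cyp2f2, with limma adjusted p between 0.053 and 0.123. WT-veh sample 3 is in neither group, so that both changes stayed at −3.32 and −2.80 without it. Without WT-veh sample 1, Cyp2e1 was not called (limma adjusted p = 0.0522) at the same change. Under quantile normalization and in a model of these 2 groups alone, the changes were −3.14 and −3.32 for Cyp2e1 and −2.68 and −2.80 for Cyp2f2 (limma adjusted p 0.0656 to 0.0839). Cyp2j9 (−0.31, limma adjusted p = 0.0872), Cyp4b1 (−0.79, limma adjusted p = 0.0965) and Cyp4v3 (−0.27, limma adjusted p = 0.103) were among 9 genes, Cyp2e1 and Cyp2f2 included, whose αERKO-DES samples all lay below αERKO-veh, as did those of 6.57% of all tested genes. They were not called, except Cyp4b1 without WT-DES sample 1 (limma adjusted p = 0.0335).

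The interaction tested whether DES changed a gene differently in the 2 genotypes. It was called for 20 of the 27 genes, 15 with the higher change in WT and 5 with the lower, where 56.4% of all tested genes were called, 29.6% higher and 26.9% lower. Without Cyp1a1, Cyp4f18 and Cyp4f39, which passed the minimum through WT-DES alone, it was called for 17 of 24, 12 higher and 5 lower. With those 3 genes included, the median difference was 0.91 for the 27 genes and 0.00 for all. The 18 genes called in WT-DES were all among the 20, and the other two were Cyp4f13 (−0.71, limma adjusted p = 0.00103) and Cyp4f16 (0.61, limma adjusted p = 0.000776). The largest differences were those of Cyp2e1 (5.63, SE 1.01, limma adjusted p = 0.000174) and Cyp2f2 (4.75, SE 0.83, limma adjusted p = 0.000134), which changed in opposite directions in the genotypes. Of the 20 called P450 genes 75.0% were higher, against 52.4% of all called genes. Under quantile normalization 11 were higher and 7 lower (61.1%, against 45.8% of all). Cyp1a1, whose difference is a description as it passed through WT-DES alone, was then not called (2.28). Rescaling without the 20 most abundant genes gave 15 higher and 2 lower (88.2%, against 78.8% of all). Leaving out the 4 samples with Mylpf above 100 FPKM left a lone αERKO-veh sample, so only log2 differences are given for that fit. Some genes were then no longer called. Of these, Cyp1a1 (2.66, a description), Cyp3a57 (−1.58) and Cyp4f16 (0.57, short of 1.5-fold) kept a difference near that with all samples. Those of Cyp21a1 (−1.16), Cyp2j13 (−0.66) and Cyp4f13 (−0.50) were smaller.

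Between the DES groups, which share samples with the comparisons above, αERKO-DES differed from WT-DES in 19 of the 27 genes, 4 higher and 15 lower, where 53.4% of all tested genes were called, 23.7% higher and 29.6% lower. Without the 3 genes that passed through WT-DES alone it was 16 of 24, 4 higher and 12 lower. Of the 19 called P450 genes 21.1% were higher, against 44.5% of all called genes. Under quantile normalization the split was 7 higher and 13 lower (35.0%, against 53.8% of all). Cyp4f16 was lower in αERKO-DES (mean 4.29 ± 0.612 FPKM, SD, n = 4), at a log2 change of −0.85 (SE 0.09, limma adjusted p = 1.02e-06). The 4 higher genes were Cyp20a1, Cyp21a1, Cyp2j13 and Cyp3a57, those that fell with DES in WT. There were 7 genes called in no comparison, namely Cyp2b10, Cyp2j6, Cyp2r1, Cyp39a1, Cyp46a1, Cyp4f15 and Cyp4f17.

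P450 enzymes draw electrons from partner proteins. Of 6 measured electron partners, 0 rose and 2 fell in WT-DES, where 28.9% of all tested genes rose and 23.9% fell, and 3 had an unadjusted p under 0.05. Cyb5b, an outer mitochondrial cytochrome b5, fell from 138 ± 1.62 to 67.5 ± 8.04 FPKM (SD, n = 4 each, log2 change −1.03, limma adjusted p = 5.5e-08), and Fdx1, the ferredoxin that feeds mitochondrial P450s such as Cyp27a1, from 50.1 ± 2.06 to 32.2 ± 7.75 (−0.65, limma adjusted p = 0.000304). Por, the reductase of microsomal P450s, was at 49.3 ± 7.63 and 63.5 ± 7.88 and short of 1.5-fold. Under quantile normalization 1 partner was higher and 0 were lower by limma, and rescaling without the 20 most abundant genes gave 1 higher and 1 lower.

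Of 15 genes for regulators of P450 expression, 8 were expressed and 7 of them rose in WT-DES, with a median of 1.09, where 28.9% of all tested genes rose. Under quantile normalization 6 of the 8 rose. Without Ahrr, which passed the minimum through WT-DES alone, 6 of 7 rose with a median of 1.04. Besides Ahr, Arnt and Ahrr they were Nr1h3, the oxysterol receptor LXRα (6.25 ± 1.40 to 16.5 ± 2.71 FPKM), Rxra, its partner receptor (15.4 ± 0.552 to 33.8 ± 10.8), Vdr, the vitamin D receptor (1.17 ± 0.0926 to 4.05 ± 2.03), and Ppara, a fatty acid receptor (1.46 ± 0.0881 to 3.09 ± 1.83). The eighth, Nr1h2, changed by −0.47, was short of 1.5-fold and changed sign under quantile normalization. Of the P450-fold genes outside the symbol rule, Ptgis (prostacyclin synthase, 23.8 ± 1.95 to 44.8 ± 12.1 FPKM) and Tbxas1 (thromboxane synthase, 1.37 ± 0.605 to 7.32 ± 1.2) rose, and Cyp51, which makes cholesterol, fell from 20.8 ± 5.02 to 13.2 ± 3.89, a call lost on rescaling without the 20 most abundant genes. Between the vehicle groups and between the αERKO groups, 0 of the 17 genes of these 3 lists were called by limma, where 7.12% and 1.49% of all tested genes were, and 5 and 4 had an unadjusted p under 0.05.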

How the data were processed

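RNA of week 5 SVs was sequenced on the HiSeq 2000 with paired 126 nt reads. As the authors' methods and processing notes state, reads above a quality of 20 were aligned to mm10 (GRCm38) with TopHat2 (2.0.4), and Cufflinks (2.0.2) gave expression per gene. The authors deposited the values as FPKM, which were used as given. The gene annotation, the scaling between libraries and whether counting used strand are not given in the sources used here. No counts were at hand, so depth is unknown and no count test was run.

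Groups followed the labels, with 4 samples in each. limma (3.58.1, R 4.3.3) was fitted to log2(FPKM + 1) with a mean for each of the 4 groups and a trend in the prior variance, and the thresholds are given with the results. Figures and summaries were made in Python (3.11.15). The fit was tested on simulated data. P-values weigh the difference between group means against the spread between samples, pooled over the 4 groups and moderated across genes.

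The P450 genes, the other gene lists and the markers were chosen with earlier results of these data known. Every P450 gene above 1 FPKM in a group could be named. Values in every sample were due for the 10 with the highest group mean, for the 8 with the largest called rise and the 8 with the largest called fall in WT-DES, and for those called in αERKO-veh relative to WT-veh or in αERKO-DES relative to αERKO-veh. Values in every sample for other genes were chosen after they were seen.

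Alternatives were a pseudocount of 0.1, no minimum, a minimum of 5 FPKM, median-ratio scaling, quantile normalization, rescaling without the 20 most abundant genes, a length correction (lowess, span 0.3), models of only the 2 groups compared, a replicate block and leaving out each sample. An alternative without the 4 samples with Mylpf above 100 FPKM was chosen after seeing the data. Of the 92 genes, 91 matched GENCODE M21. The list of haem synthesis genes holds an item that is not reported here, so its result is left out.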

Additional observations from a re-analysis of the deposited data

Results flagged for a closer look

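A sample stood far from the other 3 of its group in 7 of 108 groups tested, 27 genes in 4 groups each, by Dixon's criterion for 4 samples at the 95% level. Chance alone gives such a gap in about 1 of 20 groups. Of the 7, 4 belonged to WT-DES sample 1, with 41.7 FPKM for Cyp1a1, 21.6 for Cyp2s1, 40.1 for Cyp4f15 and 4.08 for Cyp3a57. All 4 values were above the rest of WT-DES, and that of Cyp3a57 was near the vehicle level. Its smooth muscle markers summed to 3580 FPKM, within the 2993 to 3734 of WT-veh, against 791 to 1256 in the other 3 WT-DES samples, and 5 of 6 of them were called lower in that group. The part of this in the P450 values was not tested. The other gaps were Cyp2f2 in WT-veh sample 4 at 28.3 FPKM, a sample with Mylpf at 307, Cyp2s1 in WT-veh sample 1 at 2.88 and Cyp26b1 in αERKO-veh sample 2 at 4.15.

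The change with DES differed between WT and αERKO, by limma's test of the interaction (adjusted p of at most 0.05 and 1.5-fold), for 20 of the 27 genes. Of all tested genes, 56.4% were called in it. In log2 units, the difference was 5.63 for Cyp2e1 and 4.75 for Cyp2f2, which were higher with DES in WT and lower in αERKO. Cyp1a1, Cyp4f18 and Cyp4f39 were tested through their level in WT-DES alone, so their differences are a description. Among the fatty acid enzymes it was 2.29 for Cyp4f18, 1.88 for Cyp4b1, 1.81 for Cyp2j9, 1.53 for Cyp4v3, 1.44 for Cyp4f39 and 0.61 for Cyp4f16, and on the lower side −0.71 for Cyp4f13 and −1.12 for Cyp2j13. For the CYP1 genes it was 2.62 (Cyp1a1) and 1.55 (Cyp1b1), and for Cyp2s1 2.04. For Cyp2d22 it was 1.79, for Cyp27a1 1.55, for Cyp26b1 1.47 and for Cyp7b1 0.91. The remaining differences were −0.68 for Cyp20a1, −1.62 for Cyp3a57 and −1.89 for Cyp21a1.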

How the results depend on the processing

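Of 60 calls of P450 genes over the 5 comparisons, 53 kept direction and call in each of the 16 fits without 1 sample. Over those fits and the 10 other alternatives together, where they gave a value, 41 did so, and 0 reversed. Without a minimum, of 83 P450 genes tested, 30 were called between WT-DES and WT-veh (24 higher, 6 lower, 36.1% against 45.6% of all 22638 genes), 34 in αERKO-DES relative to WT-DES (7 higher, 27 lower, 41.0% against 47.3%), 21 in the interaction (25.3% against 41.0%, where it was 74.1% against 56.4% with the minimum) and 2 in αERKO-veh relative to WT-veh. There were also 2 in αERKO-veh on rescaling without the 20 most abundant genes (with Cyp1b1) and in the model of only the 2 groups (with Cyp4f15), and 0 without the 4 samples with Mylpf above 100 FPKM. In αERKO-DES relative to αERKO-veh, 0 were called under quantile normalization and in the model of only the 2 groups. Cyp2e1 and Cyp2f2 were not called without those 4 samples either, a fit with a lone αERKO-veh sample. Some interactions were lost in it as well.

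Without 1 sample at a time the count was 18 to 19 for WT-DES relative to WT-veh (51.2% to 54.2% of all tested genes). For αERKO-veh relative to WT-veh it was 0 to 2 (2.62% to 10.6%). For αERKO-DES it was 0 to 3 relative to αERKO-veh (0.00625% to 4.08%) and 18 to 20 relative to WT-DES (52.1% to 55.5%). For the interaction it was 18 to 20 (54.1% to 58.3%). αERKO-veh gave 0 without its sample 2 and 2 without its sample 1 (Cyp26b1 added) or WT-veh sample 4 (Cyp2b10 added). The interaction of Cyp2j13 was lost in 12 of these fits. In αERKO-DES relative to WT-DES, Cyp26b1 was lost without WT-DES sample 3 or αERKO-DES sample 3, and Cyp2j13 without αERKO-DES sample 1 or 2.

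Same-numbered samples correlated at −0.11 to 0.28 over genes, and in no comparison did all pairs exceed 0.1. The labels do not say what a shared number means, and a link between single pairs was not tested. With the replicate block, 18, 1, 2, 19 and 20 genes were called in the 5 comparisons, the same counts as without it.

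Rescaling without the 20 most abundant genes shifted the median log2 change of all genes by 0.39 in WT-DES, 0.14 in αERKO-veh, −0.10 with DES in αERKO, −0.34 between the DES groups and 0.51 in the interaction. It ended the interaction of Cyp20a1, Cyp2j13 and Cyp4f13. The percentage of called P450 genes that were higher in WT-DES was 77.8 as reported (54.7 of all called genes), 65.0 under quantile normalization (48.3), 84.2 on rescaling (79.2) and 92.3 with a minimum of 5 FPKM (46.2). Cyp1a1, Cyp2s1, Cyp4f18, Cyp2j9, Cyp7b1 and Cyp4b1 passed the minimum of 5 FPKM through WT-DES alone. Part of the 92.3 is thus fixed by the selection. At the minimum of 1 FPKM this held for Cyp1a1, Cyp4f18 and Cyp4f39. The causes were not tested. The unknown depth limits what can be said of genes near 0.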
